A study of Mus musculus with 18 samples.

Results

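The nuclear-encoded subunits of respiratory complex I were followed through the hearts of Kcp knockout and wild-type mice after pressure overload or a sham operation. Members were the genes whose symbol is Nduf followed by a, b, c, s or v and a number, together with Ndufab1, which gave 38 of the 34714 genes in the table. The assembly factors (Ndufaf genes) and the like-named genes Ndufb4b and Ndufb4c are not members. All 38 passed the filter on low values, at least 1 FPKM (a level scaled for transcript length and library total) in at least 3 libraries, and were tested.

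The groups were KO TAC (KCP knockout, transverse aortic constriction surgery, 5 libraries), KO sham (KCP knockout, sham, 4 libraries), WT TAC (WT, transverse aortic constriction surgery, 5 libraries) and WT sham (WT, sham, 4 libraries). Transverse aortic constriction (TAC) narrows the aorta and loads the left ventricle with pressure. KCP, kielin/chordin-like protein, is a secreted modulator of BMP and TGF-beta signalling, and the comparison of genotypes asks how remodelling under that load changes without it. The mice are described as C57 and the tissue as heart. How the Kcp allele was made, the part of the heart, the age and sex of the mice and the time after surgery are not given. Separate mice for separate libraries are not stated either, and the p-values rest on the spread among libraries, which may be technical. KO sham replicate 2 carries a library name that joins those of replicates 3 and 4 of its group, so it stood outside the model and its values are given separately as the joined library. That left 17 libraries. KO TAC replicate 4 also carries a name that joins a pair of sample names, neither of which is another library here, and it was kept.

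Complex I takes electrons from NADH, passes them along a flavin and a chain of iron-sulfur clusters to ubiquinone, and pumps protons across the inner mitochondrial membrane. Core subunits, conserved from bacteria, carry the chemistry, while supernumerary subunits surround and stabilise them. The enzyme is put together from modules: N binds NADH, Q reduces ubiquinone, and the ND1, ND2, ND4 and ND5 modules form the proton-pumping membrane arm around the subunits that mitochondrial DNA encodes. The heart, which draws most of its ATP from oxidative phosphorylation, holds the enzyme in abundance. Under the names searched, 0 of the 7 mitochondrially encoded subunits were in the table, so they were not analysed here. By its symbol Ndufa4 is a member, but its protein is now counted as a subunit of complex IV, so it is kept apart from the modules below.

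The genotype label could be checked only in part. Kcp was low everywhere, at 0.494 to 0.952 FPKM in KO TAC, 0.655 to 0.673 FPKM in the model libraries of KO sham, 0.985 to 1.48 FPKM in WT TAC and 0.794 to 1.43 FPKM in WT sham. It did not pass the threshold between genotypes after TAC (log2 difference -0.27, limma adjusted p = 0.0843) or in sham hearts (-0.28, limma adjusted p = 0.301). Sequencing depth is unknown, because FPKM values keep none. The summed level of 6 genes that respond to load, such as Nppa, was 8701 to 17851 FPKM in KO TAC against 640.4 to 1147 FPKM in KO sham, and 3880 to 11698 FPKM in WT TAC against 964.4 to 1297 FPKM in WT sham. KO TAC replicate 2 and WT TAC replicate 5 had the lowest mean log2 load signal of their groups, 9.48 and 8.46. All 10 cardiomyocyte markers were present in every library. A further split crossed the groups: Ndufb4c placed WT sham replicates 1 to 4 and WT TAC replicates 1 to 4 in a higher set, and WT TAC replicate 5 with all 9 KO libraries in a lower set. In 17 of 11952 genes every library of the lower set lay more than 0.5 on the log2 scale below every library of the higher set. They include Ndufb4c, whose own gap drew the sets, and 0 of the 38 members. Genes that part the sets in the other direction were not counted. The genotype label of WT TAC replicate 5 is therefore in doubt, although its Kcp, 1.04 FPKM, lay among the WT TAC values and above every KO library. It was kept as labelled. Without it 18 members passed between WT TAC and WT sham, as with it, 5 in place of 7 passed between KO TAC and WT TAC, and 0 in place of 1 passed the test of a different TAC response between genotypes, with 23 of the 38 at an unadjusted p under 0.05. The median log2 values over the members were then -0.20, -0.11 and -0.22.

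Members were abundant in unloaded wild-type hearts, but not equally so. Mean WT sham levels, which are scaled for length and so can be set beside each other, ran down to 98.0 FPKM for Ndufb2, a small membrane-arm subunit, with Ndufa4 highest at 1508 FPKM. Other high members were Ndufa3 at 1028 FPKM, Ndufb9 at 811.3 FPKM, Ndufb8 at 809.4 FPKM, Ndufb10 at 607.0 FPKM and Ndufab1 at 559.2 FPKM. At the other end stood Ndufs4 at 101.4 FPKM, Ndufa11 at 100.9 FPKM and Ndufb2. Neighbours such as Ndufb9 with Ndufb8, or Ndufs4 with Ndufa11 and Ndufb2, differed by less than their spread between libraries. That spread was small: the coefficient of variation over the 4 WT sham libraries was 1.77% to 12.2% with a median of 4.32%.

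Summed over the 38 members, the level was 12018 ± 962 FPKM in KO TAC (SD, n = 5), 16406 ± 732 FPKM in KO sham (n = 3), 12896 ± 392 FPKM in WT TAC (n = 5) and 14928 ± 537 FPKM in WT sham (n = 4). Members made up 2.75% to 3.13% of the summed FPKM of a library in KO TAC against 3.76% to 3.93% in KO sham, and 3.09% to 3.26% in WT TAC against 3.55% to 3.74% in WT sham. Neither genotype's TAC and sham libraries overlapped on this share. The KO sham libraries of the model lay highest of the 4 groups, but the joined library, with a sum of 14624 FPKM and a share of 3.67%, lay inside the WT sham range. The mean log2(FPKM + 1) over the members was 7.97 and 7.90 in KO TAC replicates 1 and 4, the lowest of all libraries. The other three KO TAC libraries, at 8.09 to 8.15, overlapped with the WT TAC libraries, at 8.10 to 8.20. It was 8.40 to 8.51 in KO sham, with 8.32 in the joined library, against 8.29 to 8.39 in WT sham.

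**Figure D1:**
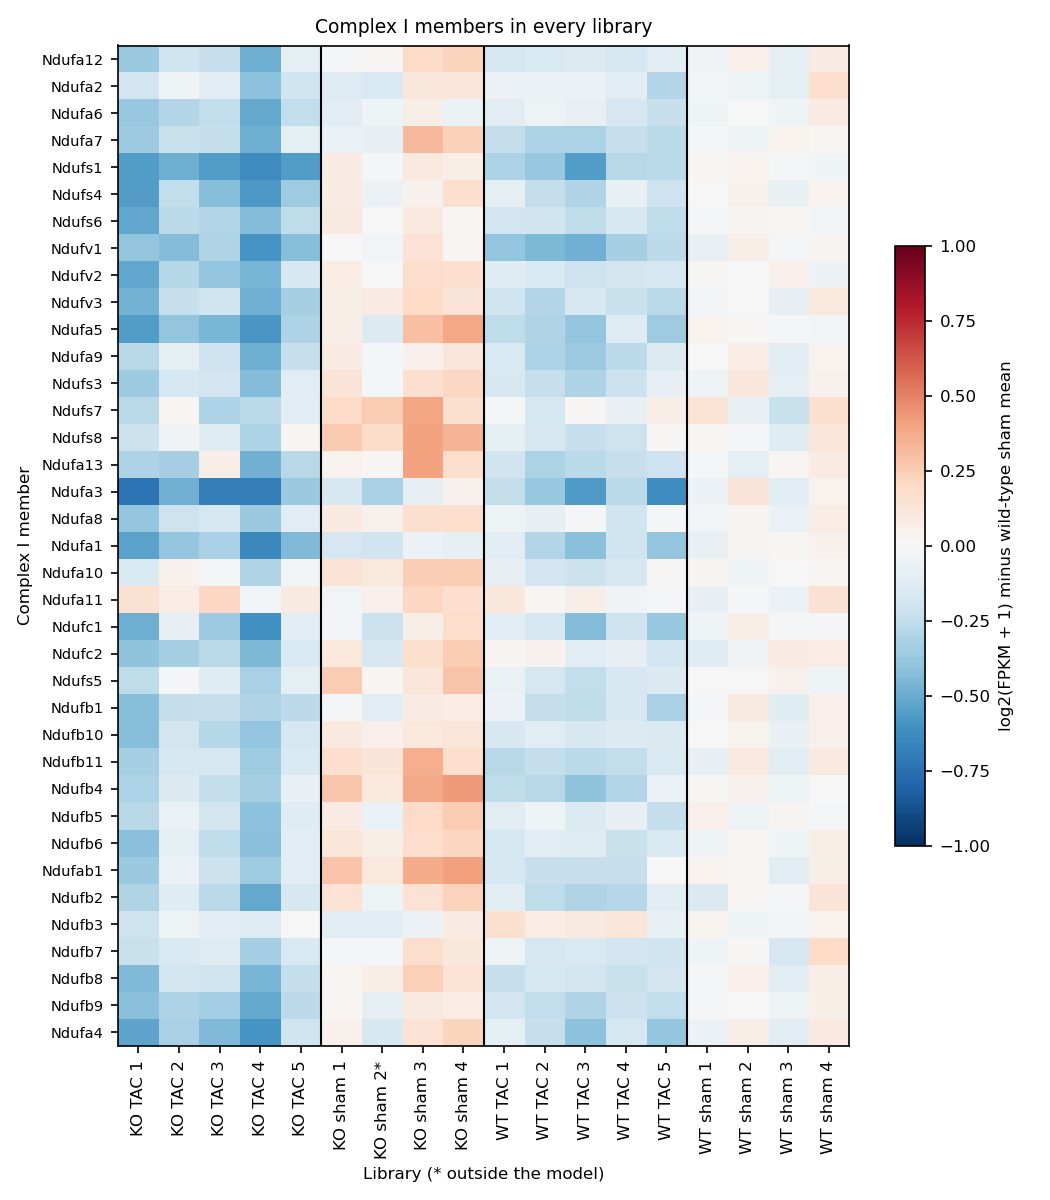
Difference of each library's log2(FPKM + 1) from the WT sham mean (colour scale, blue lower and red higher) for members (down the page, in module order) in all 18 libraries (across, the joined library starred). Columns of KO TAC replicates 1 and 4 are the bluest, those of the other KO TAC libraries are about as blue as those of WT TAC, KO sham columns of the model are mostly red, and the lines of Ndufa11 and Ndufb3 stay pale throughout. The joined library had a mean log2(FPKM + 1) over the members of 8.32, inside the WT sham range of 8.29 to 8.39.

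Promoter windows are shown for 4 members. Ndufa5 had the steepest fall after TAC in knockout hearts, and Ndufa11 had the smallest change there. Ndufc2 was the single member whose TAC response passed the test of a difference between genotypes in the main fit. Most fits with a single library left out did not keep that call. Ndufs4 was the lowest in level of the N module, and its TAC change in knockout marked neither end of the range. Sequences are from RefSeq (GRCm38.p6) and run from 250 bases before the transcript start to 50 after it, given 5′ to 3′ along the gene, with motif matches in capitals.
Ndufa5 promoter window, chr6:24527477-24527776, minus strand: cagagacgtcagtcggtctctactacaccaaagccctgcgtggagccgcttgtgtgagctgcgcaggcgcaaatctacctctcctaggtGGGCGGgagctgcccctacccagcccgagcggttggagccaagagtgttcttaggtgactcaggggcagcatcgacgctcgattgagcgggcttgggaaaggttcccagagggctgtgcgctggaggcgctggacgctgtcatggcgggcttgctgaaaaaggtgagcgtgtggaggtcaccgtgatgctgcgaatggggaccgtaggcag
Ndufc2 promoter window, chr7:97399753-97400052, plus strand: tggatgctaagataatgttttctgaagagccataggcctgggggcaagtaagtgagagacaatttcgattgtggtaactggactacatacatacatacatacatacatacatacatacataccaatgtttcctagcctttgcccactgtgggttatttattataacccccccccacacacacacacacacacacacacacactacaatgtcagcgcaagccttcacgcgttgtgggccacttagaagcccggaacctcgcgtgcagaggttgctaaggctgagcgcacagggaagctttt
Ndufs4 promoter window, chr13:114388045-114388344, minus strand: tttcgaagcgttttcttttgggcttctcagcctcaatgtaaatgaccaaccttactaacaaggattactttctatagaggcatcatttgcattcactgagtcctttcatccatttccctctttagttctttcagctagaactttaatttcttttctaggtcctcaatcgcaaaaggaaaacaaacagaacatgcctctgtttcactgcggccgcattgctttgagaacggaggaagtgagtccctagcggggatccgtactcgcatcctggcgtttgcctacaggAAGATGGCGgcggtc
Ndufa11 promoter window, chr17:56717512-56717811, plus strand: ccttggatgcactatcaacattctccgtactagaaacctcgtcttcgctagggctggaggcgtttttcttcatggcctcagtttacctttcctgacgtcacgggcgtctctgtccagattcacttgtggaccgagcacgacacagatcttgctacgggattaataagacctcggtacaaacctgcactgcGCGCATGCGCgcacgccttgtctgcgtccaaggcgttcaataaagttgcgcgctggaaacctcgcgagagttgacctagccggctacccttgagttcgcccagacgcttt
The capitals mark a match to SP1 in Ndufa5, to YY1 in Ndufs4 and to NRF1 in Ndufa11, and the Ndufc2 window holds none of the 5 motifs searched. The motifs, read on both strands, were GCGCATGCG for NRF1, CCGGAAG for ETS factors, TCAAGGTCA for ERR, AAGATGGCG for YY1 and GGGCGG for SP1. The NRF1 string of Ndufa11 matches on both strands, and 1 pair of different motifs overlapped in the member windows. A window was given for 34 of the 38 members, and all 38 symbols matched RefSeq. YY1 letters stood in 5 of the 34 windows (14.7%), those of Ndufa9, Ndufc1, Ndufs4, Ndufs6 and Ndufs7, against 1.64% of all RefSeq windows and 3.65% of the windows of tested genes. NRF1 letters stood in 2 windows (5.88%, against 1.95% and 4.04%), ETS letters in 4 (11.8%, against 9.93% and 20.1%) and SP1 letters in 15 (44.1%, against 38.2% and 68.1%). ERR letters stood in 0 of the 34, against 0.466% and 0.344%. A match is a string of letters and does not show that a factor binds there.

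Complex I messages were lower after TAC than after sham in knockout hearts, with few exceptions. In the limma fit, 36 of the 38 members fell (Benjamini-Hochberg adjusted p under 0.05 over 11937 genes) and 0 rose, where 17.7% of all tested genes fell and 21.1% rose. At an unadjusted p under 0.05 the counts were also 36 and 0, where 21.6% of all tested genes fell. The change was negative for all 38, against 48.1% of all tested genes. The median log2 change was -0.43, by which a member fell by 25.9%, with a range of -0.71 to -0.02, and the median over all tested genes was 0.01. For 34 members every KO TAC library lay below every KO sham library, a pattern that 16% of all tested genes showed. Abundant genes were called more often than others, and among the 624 genes with a mean at or above that of Ndufb2, the lowest member, 41.7% fell.

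In wild-type hearts fewer members passed, in the same direction. After TAC 18 of the 38 members fell and 0 rose in the limma fit, where 11.2% of all tested genes fell and 10.7% rose, and 26.3% of the 624 abundant genes fell. At an unadjusted p under 0.05, 29 fell and 0 rose, where 18.1% of all tested genes fell. The change was negative for 36 members, against 51.8% of all tested genes. The median log2 change was -0.20, by which a member fell by 12.9%, with a range of -0.41 to 0.07, beside a median of -0.01 over all genes. In 23 members the WT TAC and WT sham libraries did not overlap, against 11.1% of all tested genes in that direction. The 18 members called in wild type were all called in knockout as well, and the other 18 called in knockout did not pass in wild type, which by itself does not show that the genotypes differ. Without WT sham replicate 2 or 4 the wild-type count was 12.

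**Figure D2:**
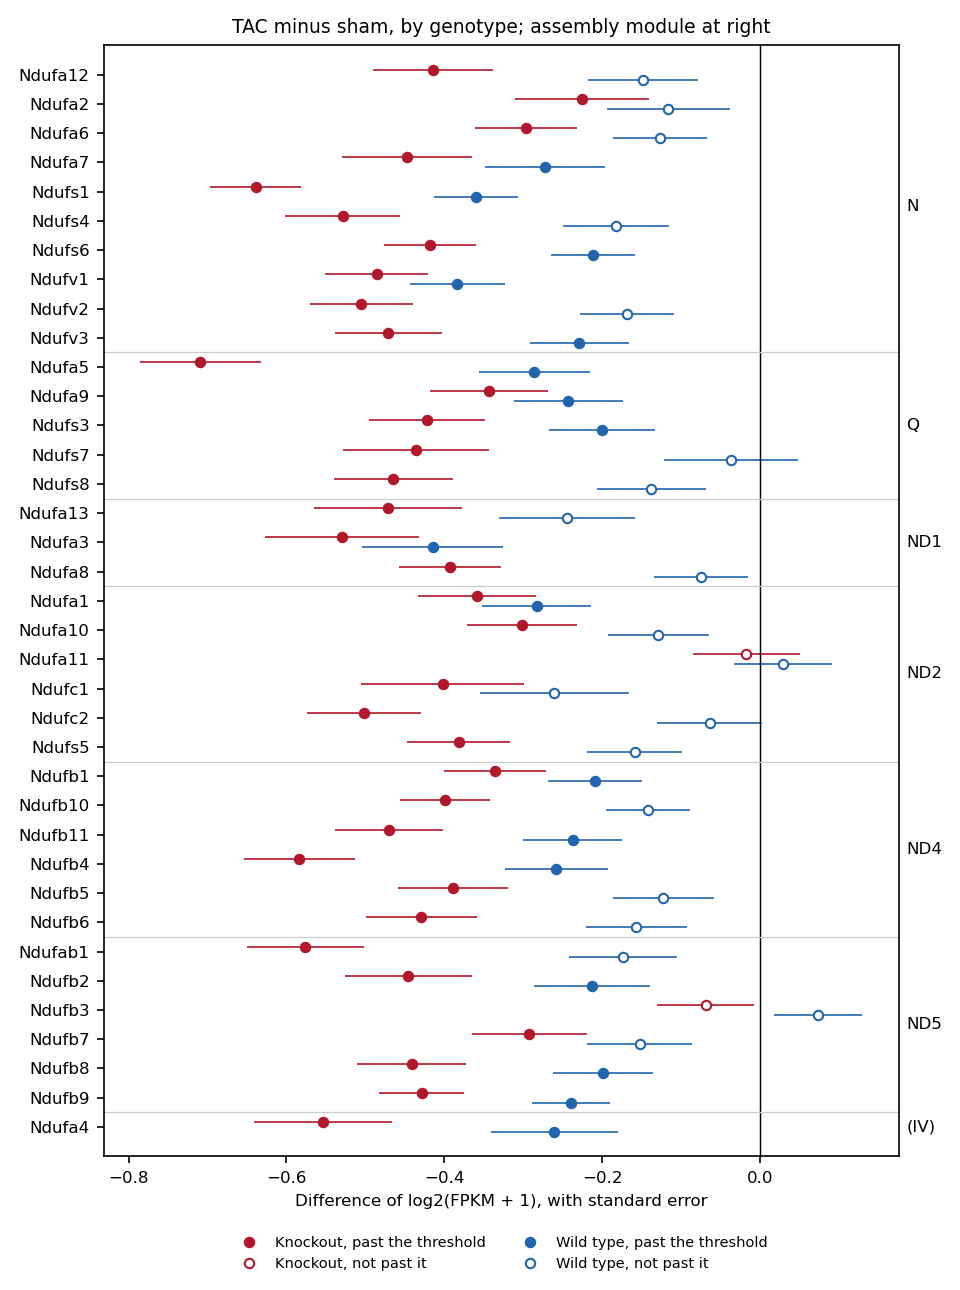
TAC minus sham difference of log2(FPKM + 1) with its standard error (horizontal axis) for members (down the page, grouped by module), with knockout in red above wild type in blue; filled points passed the threshold of adjusted p under 0.05. Knockout points lie left of the wild-type points for every member plotted, and only Ndufa11 and Ndufb3 have open knockout points.

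In bulk tissue, fewer cells of a type and less RNA per cell cannot be told apart. Of all tested genes 17.7% fell and 21.1% rose after TAC in knockout, and 11.2% fell and 10.7% rose in wild type. Of the 10 cardiomyocyte markers, 6 fell and 2 rose after TAC in knockout, and 5 fell and 3 rose in wild type. Their summed level was 31597 to 34320 FPKM in KO TAC against 39101 to 41804 FPKM in KO sham, and 34436 to 37836 FPKM in WT TAC against 38342 to 39656 FPKM in WT sham. Most of these markers themselves changed with TAC, so their sum is not a count of cells. As a percent of that sum, the members were at 34.2% to 38.3% in KO TAC against 39.8% to 41.8% in KO sham. In wild type the ranges met, at 34.0% to 38.5% in WT TAC against 37.2% to 39.1% in WT sham. Of the 10 fibroblast markers 7 rose in knockout and 4 rose and 1 fell in wild type, with sums of 842 to 1152 FPKM in KO TAC against 711 to 800.9 FPKM in KO sham and 783 to 1165 FPKM in WT TAC against 671 to 887 FPKM in WT sham. Of the 9 tested macrophage markers 5 rose in knockout and 1 in wild type, with sums of 243 to 339 FPKM in KO TAC against 176 to 197 FPKM in KO sham and 194 to 301 FPKM in WT TAC against 160.3 to 257 FPKM in WT sham. Endothelial markers rose in 2 of 10 genes in knockout and changed in 0 of 10 in wild type, smooth muscle and pericyte markers rose in 1 and fell in 1 of 10 in knockout and fell in 1 in wild type, and 0 of 5 tested erythrocyte markers changed in either genotype. These counts, and the macrophage count in wild type, lie near or below the shares over all tested genes. No cardiomyocyte, fibroblast or macrophage marker was at 0 in any library of the model. Their part in the fall of the members was not tested.

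The N module oxidises NADH. All 10 of its members fell in knockout after TAC and 5 of 10 fell in wild type, with median log2 changes of -0.46 and -0.20. Ndufs1 (chr1:63143592-63176822), the core subunit with the most iron-sulfur clusters of this arm, had the most negative change of the module in knockout. Ndufs1 was at 170.5, 179, 169.9, 163 and 171 FPKM in the KO TAC libraries, against 265, 269 and 264 FPKM in the KO sham libraries of the model and 248 FPKM in the joined library. In wild type it was at 203, 193, 171, 207 and 208 FPKM in the WT TAC libraries, against 255, 257, 249 and 244 FPKM in the WT sham libraries. Libraries of the TAC and sham groups did not overlap in either genotype, and the log2 change was -0.64 ± 0.06 in knockout (limma adjusted p = 3.69e-07) and -0.36 ± 0.05 in wild type (limma adjusted p = 0.000170). It fell by 35.8% in knockout and fell by 22.1% in wild type.

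Ndufv1 (chr19:4007499-4012755), which binds NADH and the flavin, fell in both genotypes. Ndufv1 was at 252, 245, 269, 218 and 247 FPKM in the KO TAC libraries, against 332, 368 and 335 FPKM in the KO sham libraries of the model and 326 FPKM in the joined library, and in wild type it was at 253, 243, 237, 263 and 277 FPKM in the WT TAC libraries, against 315, 346, 329.5 and 338 FPKM in the WT sham libraries. TAC libraries lay below sham libraries in both genotypes, with log2 changes of -0.49 ± 0.07 in knockout (limma adjusted p = 1.82e-05) and -0.38 ± 0.06 in wild type (limma adjusted p = 0.000289). Ndufv2, its iron-sulfur partner, passed the test in knockout alone. Ndufv2 was at 187, 220.2, 204, 194 and 241 FPKM in the KO TAC libraries, against 283, 304 and 303 FPKM in the KO sham libraries of the model and 269 FPKM in the joined library, with a log2 change of -0.51 ± 0.07 (limma adjusted p = 1.14e-05). Its wild-type values were 247, 241, 233, 236 and 238 FPKM in the WT TAC libraries, against 271, 268, 278 and 258 FPKM in the WT sham libraries, a set of groups that did not overlap but whose change of -0.17 missed the threshold (limma adjusted p = 0.0519).

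Among the supernumerary N-module subunits, Ndufs4, whose loss causes a Leigh-like disease in mice, was at 68.5, 85.5, 75.0, 67.7 and 78.8 FPKM in KO TAC against 107, 104 and 114 FPKM in KO sham (97.3 FPKM in the joined library). All KO TAC values lay below all KO sham values, and the log2 change was -0.53 ± 0.07 (limma adjusted p = 2.09e-05). In wild type Ndufs4 was at 95.2, 85.6, 82.3, 96.2 and 87.4 FPKM in the WT TAC libraries, against 101, 104, 96.4 and 104 FPKM in the WT sham libraries, with a change of -0.18 (limma adjusted p = 0.0576). Ndufv3, Ndufs6, Ndufa7 and Ndufa12 fell as well, with log2 changes of -0.47, -0.42, -0.45 and -0.41 in knockout. The smallest change of the module was that of Ndufa2, which stood at 134, 148, 141, 115 and 133 FPKM in KO TAC against 139, 165 and 166 FPKM in KO sham. Its groups overlapped, and the log2 change of -0.23 ± 0.09 only just passed (limma adjusted p = 0.0445).

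The Q module carries the last iron-sulfur clusters and the ubiquinone site. All 6 members fell in knockout and 4 of 6 in wild type, with medians of -0.45 and -0.22. Ndufs3, a core subunit of the module, was at 244, 279, 277, 233 and 292 FPKM in KO TAC against 345, 354 and 364 FPKM in KO sham, with 313 FPKM in the joined library, and at 282, 269, 254, 271 and 298 FPKM in the WT TAC libraries, against 304, 340.4, 294 and 325 FPKM in the WT sham libraries. Its log2 change was -0.42 ± 0.07 in knockout, with groups apart (limma adjusted p = 0.000203), and -0.20 ± 0.07 in wild type, with groups overlapping by WT sham replicate 3 (limma adjusted p = 0.0419).

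Ndufs7 and Ndufs8, the core subunits that hold the clusters nearest to ubiquinone, passed in knockout alone. Ndufs7 was at 389.8, 478, 379.7, 391 and 436 FPKM in the KO TAC libraries, against 538, 619 and 525 FPKM in the KO sham libraries of the model and 562 FPKM in the joined library. Its wild-type values were 465, 416, 475, 448 and 493 FPKM in the WT TAC libraries, against 516, 447, 404 and 526 FPKM in the WT sham libraries, so the WT sham group alone spanned the whole of the WT TAC group. The log2 change was -0.44 ± 0.09 in knockout (limma adjusted p = 0.00116) and -0.04 ± 0.08 in wild type (limma adjusted p = 0.795). Ndufs8 was at 194, 219.7, 206, 182 and 228 FPKM in the KO TAC libraries, against 269.6, 298 and 285 FPKM in the KO sham libraries of the model and 255 FPKM in the joined library, and in wild type it was at 210.5, 199.9, 192, 195 and 227 FPKM in the WT TAC libraries, against 228, 223, 207 and 245 FPKM in the WT sham libraries. Its KO TAC values lay below all KO sham values, with a log2 change of -0.46 ± 0.08 (limma adjusted p = 0.000106), while the wild-type groups overlapped, with a change of -0.14 (limma adjusted p = 0.168). Taking the 7 core subunits as one class, 7 of 7 fell in knockout and 4 of 7 in wild type, with medians of -0.48 and -0.20.

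**Figure D3:**
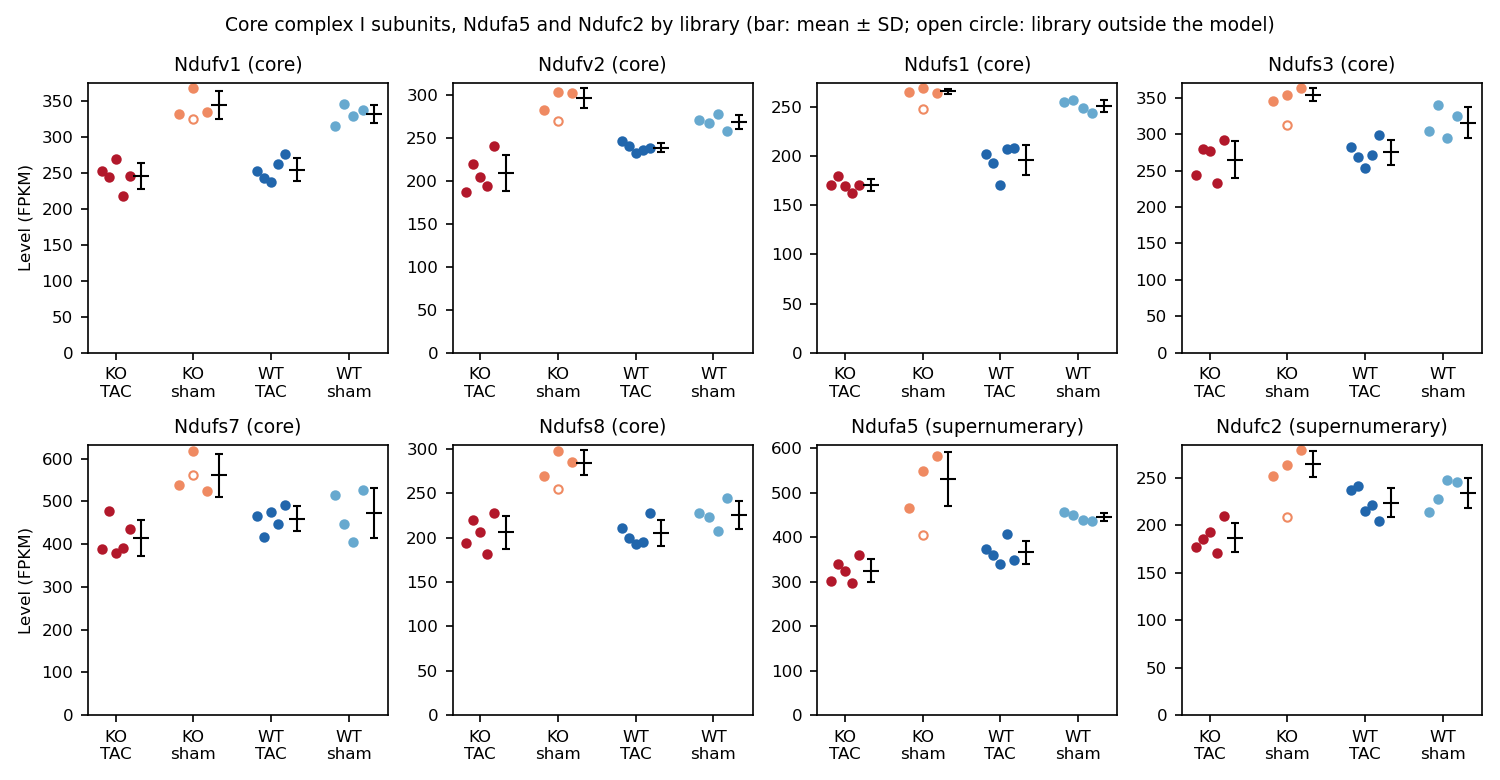
Level in FPKM (vertical axis, from 0) of core subunits, Ndufa5 and Ndufc2 in each library, by group, with mean ± SD over the model libraries beside the points and the joined library as an open circle. KO TAC points lie below the filled KO sham points in all 8 panels, whereas in wild type the groups overlap in the panels of Ndufs3, Ndufs7, Ndufs8 and Ndufc2.

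Ndufa5, a supernumerary Q-module subunit, had the steepest fall of all members in knockout. It was at 302, 339, 323, 297 and 359.6 FPKM in KO TAC against 465, 548 and 582 FPKM in KO sham, with 404 FPKM in the joined library, and at 374, 360.4, 340.5, 406 and 349 FPKM in the WT TAC libraries, against 457, 449, 439 and 436 FPKM in the WT sham libraries. The TAC and sham libraries did not overlap in either genotype. The change was -0.71 ± 0.08 in knockout (limma adjusted p = 1.88e-06) and -0.29 ± 0.07 in wild type (limma adjusted p = 0.00727), so that it fell by 38.8% in knockout and fell by 18% in wild type. Ndufa9, which sits where the Q module meets the membrane arm, was at 255, 290.2, 269, 221 and 265 FPKM in KO TAC against 328, 321 and 337 FPKM in KO sham, and at 279, 251, 241, 259 and 283 FPKM in the WT TAC libraries, against 311, 328, 286 and 317 FPKM in the WT sham libraries. Its groups lay apart in both genotypes, and it changed by -0.34 ± 0.08 in knockout and -0.24 ± 0.07 in wild type (limma adjusted p = 0.00151 and 0.0178).

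In the membrane arm the 3 ND1-module members all fell in knockout, and 1, Ndufa3, fell in wild type. Ndufa3 was at 615, 736, 638, 634 and 792 FPKM in KO TAC against 919.6, 971 and 1059.6 FPKM in KO sham, and at 872, 788, 692, 851 and 667 FPKM in the WT TAC libraries, against 983, 1123, 954 and 1052 FPKM in the WT sham libraries. Its log2 change was the most negative of any member in wild type, at -0.41 ± 0.09 (limma adjusted p = 0.00321), and was -0.53 ± 0.10 in knockout (limma adjusted p = 0.000344). Ndufa13, also known as GRIM-19, changed by -0.47 ± 0.09 in knockout (limma adjusted p = 0.000691), although KO TAC replicate 3 overlapped with the KO sham group. In the ND2 module 5 of 6 fell in knockout and 1 of 6 in wild type, Ndufa1, at 140.2, 155, 162, 130.1 and 149.8 FPKM in KO TAC against 181, 195 and 191 FPKM in KO sham and 189, 166, 152, 177 and 155 FPKM in WT TAC against 193, 207, 205 and 209 FPKM in WT sham. The groups of Ndufa1 lay apart in both genotypes, with changes of -0.36 ± 0.08 in knockout and -0.28 ± 0.07 in wild type (limma adjusted p = 0.00104 and 0.00710). The ND4 module, further out along the arm, fell in 6 of 6 members in knockout and 3 of 6 in wild type (Ndufb1, Ndufb4 and Ndufb11). Ndufb4 (chr16:37647602-37654368) was at 396, 446, 418, 391 and 468 FPKM in KO TAC against 599, 642 and 663 FPKM in KO sham, and at 414, 407, 373, 402 and 472 FPKM in the WT TAC libraries, against 499, 507, 477 and 491 FPKM in the WT sham libraries. Its groups did not overlap in either genotype, and its change was -0.58 ± 0.07 in knockout (limma adjusted p = 6.35e-06) and -0.26 ± 0.07 in wild type (limma adjusted p = 0.00865). In the ND5 module at the tip, 5 of 6 fell in knockout and 3 of 6 in wild type (Ndufb2, Ndufb8 and Ndufb9).

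Ndufab1, the mitochondrial acyl carrier protein, was at 433, 534, 480.3, 436 and 518 FPKM in KO TAC against 679, 722 and 742 FPKM in KO sham, with 601 FPKM in the joined library, and at 494, 477, 477, 477 and 557 FPKM in the WT TAC libraries, against 573, 566, 517 and 581 FPKM in the WT sham libraries. In knockout the groups were apart and the change was -0.58 ± 0.07 (limma adjusted p = 1.11e-05). In wild type they met through replicate 5, whose value lay above the other four WT TAC libraries, and the change was -0.17 (limma adjusted p = 0.0768). Ndufa4, the complex IV subunit, averaged 1132 ± 124 FPKM in KO TAC, 1657 ± 103 FPKM in KO sham, 1261 ± 117 FPKM in WT TAC and 1508 ± 101 FPKM in WT sham (SD, n = 5, 3, 5 and 4). Its single values were 1044, 1201, 1107, 1003 and 1308 FPKM in KO TAC against 1550.0, 1666 and 1756 FPKM in KO sham, and 1406, 1282, 1132, 1332 and 1154 FPKM in the WT TAC libraries, against 1444, 1580.5, 1401 and 1607 FPKM in the WT sham libraries. KO TAC values lay below all KO sham values and the wild-type groups overlapped, with log2 changes of -0.55 ± 0.09 in knockout (limma adjusted p = 8.03e-05) and -0.26 ± 0.08 in wild type (limma adjusted p = 0.0269).

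Ndufa11 and Ndufb3 stood against the rest. Ndufa11 (chr17:56717762-56724248), a membrane-arm subunit of the ND2 module, was at 112, 106, 116, 99.0 and 107 FPKM in KO TAC against 98.7, 117 and 113 FPKM in KO sham (104 FPKM in the joined library), and at 109, 102, 105, 98.2 and 100.1 FPKM in the WT TAC libraries, against 95.0, 99.5, 96.9 and 112 FPKM in the WT sham libraries. The groups overlapped throughout, with log2 changes of -0.02 ± 0.07 in knockout (limma adjusted p = 0.868) and 0.03 ± 0.06 in wild type (limma adjusted p = 0.778). Ndufb3, of the ND5 module, was at 134, 149.7, 144, 142 and 156 FPKM in KO TAC against 144, 149 and 164 FPKM in KO sham (143 FPKM in the joined library), and at 174, 164, 165, 169 and 147 FPKM in the WT TAC libraries, against 159, 151, 152 and 159 FPKM in the WT sham libraries. Its changes were -0.07 ± 0.06 in knockout (limma adjusted p = 0.401) and 0.07 ± 0.06 in wild type (limma adjusted p = 0.380).

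Whether TAC acted differently in the 2 genotypes was tested by the interaction, the TAC change in knockout minus the TAC change in wild type. It was negative for all 38 members, with a median of -0.23 and a range of -0.44 to -0.05, beside a median of 0.03 over all tested genes, 44.7% of which were negative. In the limma fit 1 of 38 members passed, Ndufc2, where 0.553% of all tested genes passed in that direction and 0.377% in the other. Of the 624 abundant genes 2.24% were lower, a share that the count of 1 lies near. At an unadjusted p under 0.05 there were 24 members, against 8.27% of all tested genes. The count moved with the setting: median-ratio scaling gave 6 members and changed the share of higher calls among all called genes to 27.0%, against 40.5% without it. Leaving out KO TAC replicate 2 gave 9 members, leaving out KO TAC replicate 5 gave 5, and leaving out WT TAC replicate 3 gave 3. Leaving out any other single library gave 0, with 17 to 26 members at an unadjusted p under 0.05.

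Ndufc2 (chr7:97400003-97407800), a subunit of the ND2 module, was at 177, 185, 193, 171 and 209 FPKM in KO TAC against 252, 264 and 279 FPKM in KO sham, and the joined library had 209 FPKM, level with the highest KO TAC value. In wild type it was at 238, 241, 215, 221 and 204 FPKM in the WT TAC libraries, against 214, 228, 247 and 246 FPKM in the WT sham libraries. The knockout groups of the model lay apart and the wild-type groups overlapped. Its TAC change was -0.50 ± 0.07 in knockout (limma adjusted p = 3.25e-05) and -0.06 ± 0.07 in wild type (limma adjusted p = 0.532), a difference of -0.44 ± 0.10 (limma adjusted p = 0.0407). With the joined library in the fit 0 members passed, against 18 at an unadjusted p under 0.05. Next in size came Ndufa5 at -0.42 ± 0.10 (limma adjusted p = 0.0568), Ndufab1 at -0.40 ± 0.10 (limma adjusted p = 0.0623) and Ndufs7 at -0.40 ± 0.13 (limma adjusted p = 0.103), none of which passed.

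In sham hearts 3 complex I messages were higher in knockout than in wild type, and most others had small positive differences. The difference between KO sham and WT sham was positive for 34 of 38 members and negative for 4, where 52.5% of all tested genes were negative. Its median was 0.14 and its range -0.11 to 0.36, beside a median of -0.01 over all genes. In the limma fit 3 members were higher and 0 lower, where 0.645% of all tested genes were higher and 0.62% lower, and 3.04% of the 624 abundant genes were higher. At an unadjusted p under 0.05 the counts were 12 higher and 0 lower, and 7.13% of all tested genes were higher. For 17 members every KO sham library of the model lay above every WT sham library, against 7.27% of all tested genes. The joined library was below both replicates 3 and 4, whose names it joins, for 36 of the 38 members, as it was for 36.5% of all tested genes. With it in the fit, 1 member passed. Leaving out WT sham replicate 3, KO sham replicate 3 or KO sham replicate 4 gave 0, with 7 to 9 members at an unadjusted p under 0.05, and leaving out WT sham replicate 1 or 2 or KO sham replicate 1 gave 1.

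The 3 members that passed were Ndufb4, Ndufab1 and Ndufs8. Ndufb4, of the ND4 module, was at 599, 642 and 663 FPKM in KO sham, with 530.5 FPKM in the joined library, against 499, 507, 477 and 491 FPKM in WT sham, a log2 difference of 0.36 ± 0.07 (limma adjusted p = 0.0192). Ndufab1 differed by 0.35 ± 0.08 (limma adjusted p = 0.0307) and Ndufs8 by 0.33 ± 0.08 (limma adjusted p = 0.0464), on the values given above. In all 3 the KO sham libraries lay above the WT sham libraries without overlap. Ndufa1, Ndufa3 and Ndufa6 had the most negative differences, -0.11 ± 0.08, -0.06 ± 0.10 and -0.04 ± 0.07, and did not pass. Ndufa6 was at 341, 382 and 350.1 FPKM in KO sham against 356, 367, 355 and 389 FPKM in WT sham, with overlapping ranges. A term for the library sets left 0 of 38 members past the threshold and 3 at an unadjusted p under 0.05, and in sham hearts genotype and set cannot be told apart. Over all tested genes that term left 4 higher and 8 lower, against 77 and 74 without it.

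The Ndufb4 value is uncertain because a near-identical copy could share its reads. Ndufb4c, annotated in GENCODE as a processed pseudogene on chromosome 15, matches the Ndufb4 transcript at 100% over 390 bases. The sequence of Ndufb4b was not compared, and whether it shares reads with Ndufb4 was not tested. In the lower set, which holds all KO libraries and WT TAC replicate 5, Ndufb4c was at 4.47 to 11.2 FPKM and Ndufb4b at 10.6 to 18.6 FPKM, against 35.9 to 49.4 FPKM and 52.4 to 75.1 FPKM in the higher set. WT TAC replicate 5, which went with the KO libraries on Ndufb4b and Ndufb4c, also had the highest Ndufb4 of its group, 472 FPKM beside 373 to 414 FPKM in the other four, and the highest Ndufab1. Ndufab1 likewise has 2 processed pseudogenes at 99.8% and 99.4% identity, neither of which is in the table. When Ndufb4 and Ndufb4c were summed, a step added after seeing the data, the level was 642.0 ± 32.8 FPKM in KO sham and 539.4 ± 15.7 FPKM in WT sham (SD, n = 3 and 4), and the difference of 0.25 ± 0.07 no longer passed (limma adjusted p = 0.0816). With Ndufb4b in the sum as well, also chosen after seeing the data, the level was 659.1 ± 31.7 FPKM in KO sham and 608.8 ± 15.9 FPKM in WT sham (SD, n = 3 and 4). The difference was then 0.11 ± 0.06 (limma adjusted p = 0.439). FPKM is scaled for transcript length, and the Ndufb4 and Ndufb4c transcripts are 971 and 390 bases long. A sum of FPKM therefore weights reads of the shorter copy more, and whether the sham difference would pass with pooled reads was not tested. The TAC falls passed with both sums, with changes of -0.58 in knockout (limma adjusted p = 2.46e-06) and -0.28 in wild type (limma adjusted p = 0.00279) for Ndufb4 with Ndufb4c. For all 3 genes summed they were -0.58 in knockout (limma adjusted p = 1.45e-06) and -0.30 in wild type (limma adjusted p = 0.000978), with sums of 442.2 ± 35.2 FPKM in KO TAC and 494.0 ± 19.6 FPKM in WT TAC (n = 5 each).

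**Figure D4:**
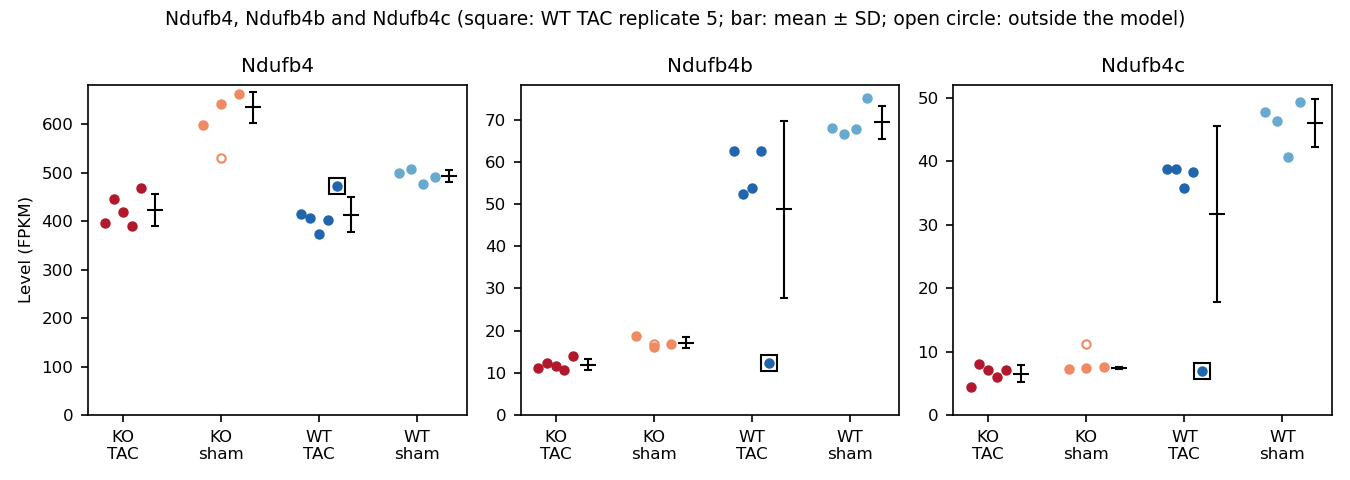
Level in FPKM (vertical axes, from 0) of Ndufb4, Ndufb4b and Ndufb4c in each library by group, with mean ± SD beside the points, the joined library as an open circle and WT TAC replicate 5 in a square. Ndufb4b and Ndufb4c are low in every KO library and in WT TAC replicate 5, and Ndufb4 itself is highest in KO sham.

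Other members have copies too. A stretch of at least 200 bases at 95% identity or more was found in the transcript of another gene for 12 of the 37 members with a GENCODE transcript, and for 8 of them in a processed pseudogene. Apart from Ndufb4 and Ndufab1 these 8 were Ndufa12, Ndufb3, Ndufb11, Ndufs3, Ndufs5 and Ndufs6, at 95.8% to 99.5% identity. Of these pseudogenes Ndufb4c was the single one in the table. Ndufa13, Ndufb5 and Ndufb6 share such a stretch with Tssk6, Mrpl47 and Smim27 on the opposite strand. The use of strand in counting is not given, so whether reads from these stretches were told apart is unknown. Ndufb9 shares 202 bases at 100% identity with Gm49356 on the same strand, a gene that is not in the table. How reads shared by copies were assigned is likewise not given, and the values of these members are uncertain to that extent.

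After TAC 7 complex I messages were lower in knockout than in wild-type hearts, 4 of them of the N module. The difference between KO TAC and WT TAC was negative for 33 of 38 members, against 45.2% of all tested genes, with a median of -0.10, a range of -0.26 to 0.07 and a median of 0.02 over all genes. In the limma fit 7 members were lower and 0 higher, where 4.78% of all tested genes were lower and 6.53% higher, and 9.78% of the 624 abundant genes were lower. At an unadjusted p under 0.05 the counts were 13 lower and 0 higher, and 11.3% of all tested genes were lower. The groups lay apart for 2 members, Ndufa6 and Ndufb10, against 2.87% of all tested genes. Of the 7 members that passed, those of the N module were Ndufs1 at -0.20 ± 0.05 (limma adjusted p = 0.0185), Ndufv2 at -0.20 ± 0.06 (limma adjusted p = 0.0347), Ndufs4 at -0.25 ± 0.06 (limma adjusted p = 0.0175) and Ndufa6 at -0.21 ± 0.06 (limma adjusted p = 0.0256). The other three were Ndufa8 of the ND1 module at -0.18 ± 0.06 (limma adjusted p = 0.0494), Ndufc2 of the ND2 module at -0.26 ± 0.06 (limma adjusted p = 0.0149) and Ndufb3 of the ND5 module at -0.17 ± 0.05 (limma adjusted p = 0.0449).

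Ndufa6, a supernumerary subunit of the LYR family, was at 282, 299.7, 309, 256 and 309 FPKM in KO TAC against 339, 353, 348, 326 and 313 FPKM in WT TAC, so that every KO TAC library lay lower. Ndufa8 was at 279, 315, 321, 281 and 337 FPKM in KO TAC against 351, 344, 359.8, 317 and 358 FPKM in WT TAC, with overlapping ranges. Ndufa10, of the ND2 module, was at 412, 472, 454, 372 and 450.1 FPKM in KO TAC against 432, 400.3, 393, 409 and 461 FPKM in WT TAC, and its sham values were 504, 544 and 545 FPKM in KO sham against 467, 445, 456 and 463 FPKM in WT sham. Ndufb4, Ndufa10 and Ndufa11 had the most positive differences, 0.04 ± 0.06, 0.04 ± 0.06 and 0.07 ± 0.06, and did not pass. The count of 7 depended on how the fit was set up. It was 1 with only the KO TAC and WT TAC libraries in the fit and 11 with median-ratio scaling. With a term for the library sets it was 0, where 4 passed an unadjusted p under 0.05. Within a genotype only WT TAC replicate 5 differs in set, so that term rests on this library. Over all tested genes the term left 153 higher and 90 lower, against 779 and 571 without it. The count of members was 2 without KO TAC replicate 1, 3 without KO TAC replicate 4 or WT TAC replicate 2, and 4 without KO TAC replicate 3 or WT TAC replicate 1 or 4. Of the 10 cardiomyocyte markers 3 were lower and 1 higher in KO TAC than in WT TAC. Of the 10 fibroblast markers 3 were higher and 1 lower, where 4.78% of all tested genes were lower and 6.53% higher. The part of these markers in the differences of the members was not tested. The single wild-type TAC library of the lower set, replicate 5, had a mean log2(FPKM + 1) over the members of 8.15, and the KO TAC libraries of that set ran from 7.90 to 8.15.

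**Figure D5:**
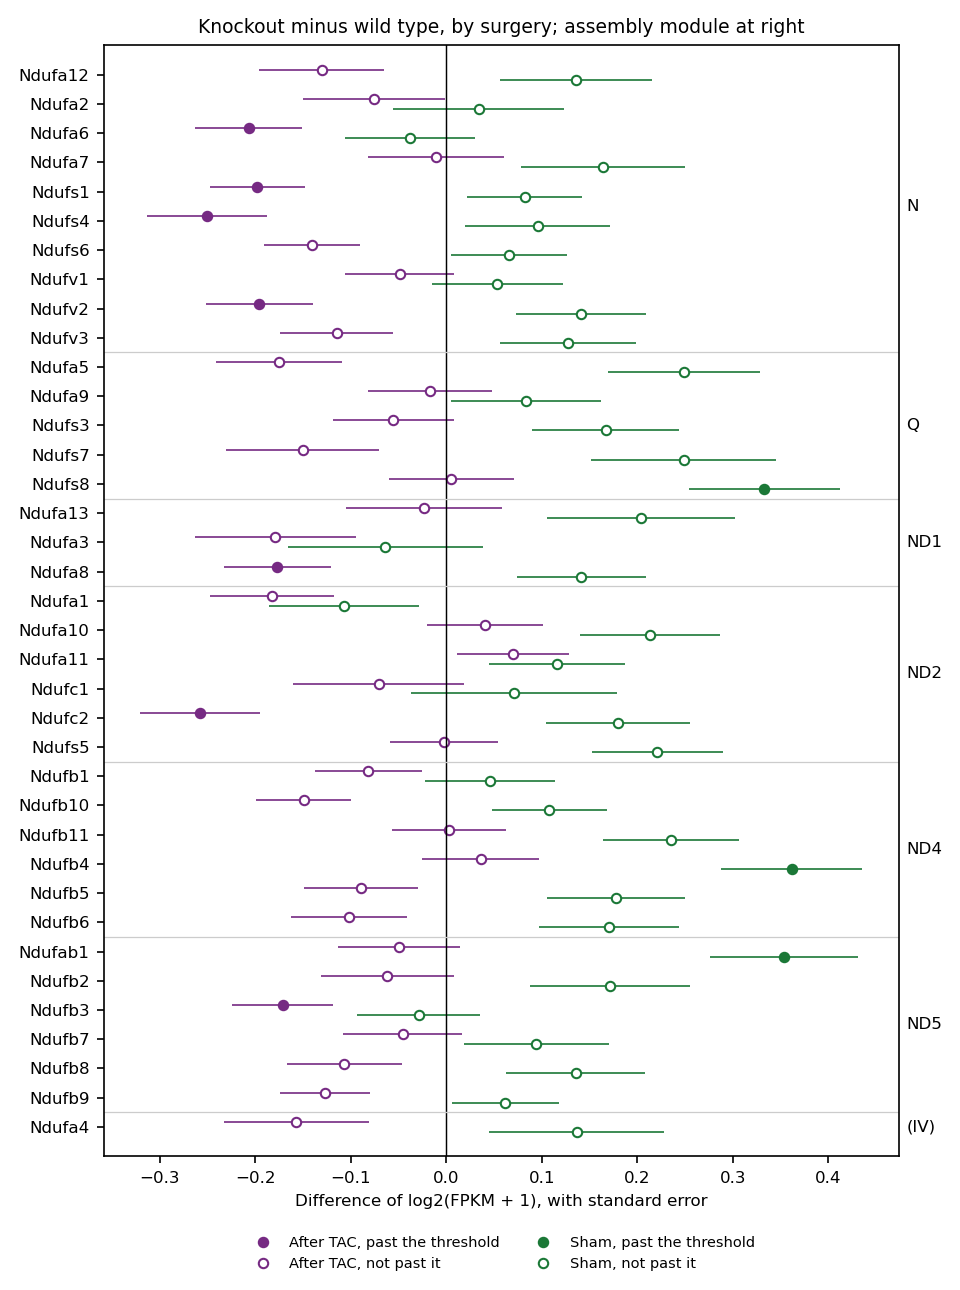
Knockout minus wild-type difference of log2(FPKM + 1) with its standard error (horizontal axis) for members (down the page, grouped by module), after TAC in purple above sham in green; filled points passed the threshold of adjusted p under 0.05. Sham points lie right of the TAC points for every member plotted, with 3 filled sham points and 7 filled TAC points.

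The other respiratory complexes fell as well. Of 40 subunits of complexes II to V, 38 fell and 0 rose after TAC in knockout and 32 fell and 0 rose in wild type, with median log2 changes of -0.50 and -0.24, beside -0.43 and -0.20 for the complex I members. Among all tested genes 17.7% fell in knockout and 11.2% in wild type. Between genotypes 4 of the 40 were lower in KO TAC than in WT TAC (Atp5pb, Atp5c1, Sdhd and Sdha) and 1 was higher in KO sham than in WT sham (Atp5g2), with medians of -0.09 and 0.18. Among all tested genes 4.78% were lower after TAC and 0.645% higher in sham. Among the 624 abundant genes these shares were 9.78% and 3.04%, which the counts of 4 and 1 lie near. The interaction passed for 1 of the 40, Atp5pb, with a median of -0.25, where 0.553% of all tested genes were lower and 0.377% higher. The mean log2 level of the members minus that of complexes II to V was -1.28 to -1.23 in KO TAC, -1.36 to -1.29 in KO sham, -1.27 to -1.20 in WT TAC and -1.30 to -1.25 in WT sham. By this measure complex I lay slightly nearer to the other complexes after TAC than after sham in each genotype, although the wild-type ranges overlapped and this difference was not tested.

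Assembly factors build the enzyme and leave it when it is complete. Of 18 tested, 11 fell and 0 rose after TAC in knockout, with a median of -0.27, and in wild type 0 fell and 1 rose, Dmac2, with a median of -0.06 and 0 falls at an unadjusted p under 0.05 as well. Among all tested genes 17.7% fell and 21.1% rose in knockout, and 11.2% fell and 10.7% rose in wild type. Ecsit, which acts in early assembly of the membrane arm, fell by 0.40 on the log2 scale in knockout (limma adjusted p = 9.87e-05), Tmem70 changed by -0.40 (limma adjusted p = 0.000518), Foxred1 by -0.33 (limma adjusted p = 0.000647) and Ndufaf4 by -0.45 (limma adjusted p = 0.00174). The interaction passed for 0 of the 18, with 8 at an unadjusted p under 0.05. Between genotypes after TAC 2 were lower in knockout, Ecsit at -0.30 (limma adjusted p = 0.00378) and Foxred1 at -0.22 (limma adjusted p = 0.0191), and 1 was higher, Dmac1 at 0.23 (limma adjusted p = 0.0429). The shares over all tested genes were 4.78% lower and 6.53% higher. In sham hearts 0 of 18 passed, with 5 at an unadjusted p under 0.05.

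Transcriptional regulators of respiratory genes formed a list of 11. After TAC in knockout 3 fell and 1 rose, where 17.7% of all tested genes fell and 21.1% rose, and in wild type 1 fell and 1 rose, where 11.2% fell and 10.7% rose, so that these counts lie near the background. In knockout Esrra, encoding ERR-alpha, changed by -0.42 (limma adjusted p = 0.000149), Gabpa by -0.28 (limma adjusted p = 0.00146) and Tfam by -0.20 (limma adjusted p = 0.0368), and Pprc1 by 0.32 (limma adjusted p = 0.0376). Esrra was at 42.9 ± 3.80 FPKM in KO TAC and 57.5 ± 0.911 FPKM in KO sham (SD, n = 5 and 3). In wild type 1 fell, Gabpa at -0.19 (limma adjusted p = 0.0251), and 1 rose, Ppargc1a at 0.87 ± 0.21 (limma adjusted p = 0.00797). Ppargc1a, which encodes PGC-1alpha, was at 40.1 ± 7.44 FPKM in WT TAC and 21.3 ± 1.88 FPKM in WT sham (n = 5 and 4), and in knockout at 32.3 ± 11.5 FPKM in KO TAC and 23.8 ± 5.36 FPKM in KO sham, a change of 0.38 that did not pass (limma adjusted p = 0.204). Between genotypes after TAC Ppargc1b alone passed, at -0.35 (limma adjusted p = 0.0137).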

How the data were processed

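The authors deposited 1 table of 34714 genes by 18 heart libraries. Its values are FPKM (fragments scaled by transcript length and library total), deposited by the authors without a named unit and identified from the values, so depth is unknown and no counting interval is given. The genome build is mm10 per the submitters' processing notes, and no source used here names the aligner or counter. Per the labels, libraries were made from total RNA with a SMARTER mRNA-seq kit.

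Values were taken as log2(FPKM + 1), so that changes of low genes are understated. The 11937 genes with at least 1 FPKM in at least 3 libraries were fitted with limma 3.58.1 (R 4.3.3) as 1 mean for each of the 4 groups, with trend and robust moderation, on 17 libraries. P-values were adjusted by Benjamini-Hochberg over all tested genes, with a threshold of 0.05. The design had foreseen a count test first and this limma fit for normalized values. The members and lists were chosen with earlier results of these data known. Values in every library are given for most core subunits, Ndufa4, Ndufab1 and Ndufb4 and, in each comparison, for members among the 3 most negative and 3 most positive changes; 1 member counted in the totals is not reported here. There were 26 alternative settings, and the code was tested on simulated data. There, changes of 0.25 on the log2 scale were recovered for 35% of changed genes in wild type and 25% in knockout. For changes of 0.5 the shares were 85% and 78%. The simulation changed 100 genes of each size among 11952, far fewer than were called after TAC in these data. Adjustment over all genes is stricter when fewer genes change, so these shares do not give the power for the members. Coordinates and promoters are from RefSeq GRCm38.p6, and transcripts of copies from GENCODE M21.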

Additional observations from a re-analysis of the deposited data

Results flagged for a closer look

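Within the groups of 4 or 5 libraries, 114 sets of values of the members were examined for a library apart from the rest, and 2 had one, fewer than the 1 in 20 that chance gives. Ndufa2 was at 124 FPKM in WT TAC replicate 5 and at 142 to 147 FPKM in the other four WT TAC libraries. Ndufab1 was at 557 FPKM in the same library and at 477 to 494 FPKM in the other four. Ndufc2 was picked out because its TAC response passed the test of a difference between genotypes, with an interaction of -0.44 on the log2 scale in the limma fit. That single call lies near the share over abundant genes.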

How the results depend on the processing

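The fall in knockout after TAC was the steadiest result: 35 to 36 of the 38 members were called in all 27 settings. In wild type the 18 members called became 12 to 23 when single libraries were left out, lowest without WT sham replicate 2 or 4, and 14 to 27 under the other settings. KO sham against WT sham, with 3 members, gave 1 with no filter on low values, 1 with all 18 libraries, 0 with a term for the library set, and 0 to 3 with single libraries left out. KO TAC against WT TAC, with 7 members, gave 4 with no filter, 11 with median-ratio scaling, 1 with only the groups compared, 0 with the library-set term, and 2 to 9 with single libraries left out. The interaction, with 1 member, gave 0 with no filter, with all 18 libraries, without trend and robust moderation and with the library-set term, 6 with median-ratio scaling, 6 without both TAC libraries nearest to sham, and 0 to 9 with single libraries left out. The limma counts of 0 went with 23, 18, 22 and 23 members at an unadjusted p under 0.05, in that order. Within a genotype only WT TAC replicate 5 differs in set, so the library-set term rests on that library. For the interaction the term left 4 genes higher and 13 lower among all tested genes, as did leaving out that library. The causes were not tested.

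The replicate block gave 21 and 35 members lower after TAC in wild type and knockout, 3 and 5 between genotypes in sham and TAC hearts, and 4 for the interaction. Replicate numbers did not pair the libraries: deviations of same-numbered libraries correlated at -0.24 to 0.16 over 22 pairs, and 3 of 17 libraries correlated best with their own number. Medians over the members kept their sign in all settings, and none moved by more than 0.071 on the log2 scale, the SD between libraries. With single libraries left out they ran from -0.21 to -0.17 in wild type, -0.46 to -0.39 in knockout, 0.10 to 0.18 in sham, -0.13 to -0.06 after TAC and -0.26 to -0.18 for the interaction.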
